A study of Mus musculus with 13 samples.

Results

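De novo fatty acid synthesis is described here by 10 genes: Acly, Me1, Acaca, Acacb, Fasn, Elovl6 and Scd1, which encode enzymes of the route from citrate to monounsaturated fatty acids, the transcription factor genes Srebf1 and Mlxipl, and Thrsp, which encodes a lipogenic cofactor. They were chosen by gene symbol for their known role in the pathway, and all 10 were found once each among the 53465 genes of the deposited counts table. RNA was sequenced from livers of 6 WT and 7 Nod2-/- male BALB/c mice, with 1 library from each mouse. All of these mice had received the carcinogen DMBA once as pups, before a high-fat diet (HFD) that lasted to the end, and the labels give their age as 30 weeks, while the methods of the study give a slightly longer time on the diet. Nod2 encodes an intracellular sensor of bacterial peptidoglycan that the Nod2-/- mice lack. The 2 lines were bred apart in the same room and from several breeder pairs, so that WT mice were not littermates of the Nod2-/- mice. There was no group on chow and none without DMBA in these data. The labels give the disease state as cancer for both genotypes, so that a liver sample could hold tumor as well as other liver tissue. The study found liver tumors in a larger share of male Nod2-/- than of male WT mice given DMBA and HFD. It kept tumor samples apart where it could. Which of these RNA samples held tumor is not given, so that tumor content and genotype cannot be told apart.

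Fatty acid synthesis in the liver starts from citrate exported by mitochondria. Acly cleaves it to acetyl-CoA, the carboxylases turn acetyl-CoA into malonyl-CoA, fatty acid synthase joins these units into palmitate with NADPH that comes in part from malic enzyme, and Elovl6 and Scd1 lengthen and desaturate the product. The pathway is known to be controlled by feeding: insulin acts through SREBP-1c, a product of Srebf1, and glucose through ChREBP, the product of Mlxipl.

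Fasn, Acaca and Acly are the 3 members whose levels followed each other most closely from mouse to mouse. The product of Srebf1 is known to act on them. For these 4 genes, sequences before an annotated start are shown. Each is the 250 bases before a RefSeq transcript start on GRCm38.p6, written 5′ to 3′ on the strand of the gene. They lie at chr11:120824548-120824797 (minus strand) for Fasn, chr11:84195188-84195437 (plus strand) for Acaca, chr11:100528001-100528250 (minus strand) for Acly, and chr11:60222582-60222831 (minus strand) for Srebf1, for which 2 further starts are annotated. Capitals mark the NF-Y box (CCAAT, or ATTGG on the other strand) and the GC box (GGGCGG, or CCGCCC).
Fasn: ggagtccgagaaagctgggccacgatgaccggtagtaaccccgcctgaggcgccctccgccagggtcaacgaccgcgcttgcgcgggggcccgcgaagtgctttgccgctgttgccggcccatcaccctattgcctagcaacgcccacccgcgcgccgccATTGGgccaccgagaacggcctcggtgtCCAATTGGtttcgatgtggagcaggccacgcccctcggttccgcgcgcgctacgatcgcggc
Acaca: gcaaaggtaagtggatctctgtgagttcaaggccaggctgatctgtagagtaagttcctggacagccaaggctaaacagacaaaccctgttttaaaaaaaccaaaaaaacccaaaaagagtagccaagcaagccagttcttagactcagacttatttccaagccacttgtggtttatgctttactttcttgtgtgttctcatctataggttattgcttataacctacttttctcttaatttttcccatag
Acly: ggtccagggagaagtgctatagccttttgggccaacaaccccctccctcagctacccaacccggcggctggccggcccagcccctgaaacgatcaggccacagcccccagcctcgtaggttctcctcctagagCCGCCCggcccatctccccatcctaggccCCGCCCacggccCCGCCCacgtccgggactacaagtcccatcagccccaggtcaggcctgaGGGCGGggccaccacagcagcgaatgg
Srebf1: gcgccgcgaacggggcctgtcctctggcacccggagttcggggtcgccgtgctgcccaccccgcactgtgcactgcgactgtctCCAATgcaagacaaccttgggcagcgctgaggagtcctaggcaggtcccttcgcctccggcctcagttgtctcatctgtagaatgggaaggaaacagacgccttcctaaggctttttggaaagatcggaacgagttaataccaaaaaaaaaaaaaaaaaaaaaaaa

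The Fasn window held 3 NF-Y boxes, at bases 90 to 86, 62 to 58 and 59 to 55 before the start, and the latter pair overlapped. The Acly window held 4 GC boxes, the Srebf1 window 1 NF-Y box, and the Acaca window neither motif. The Acaca window lies before an internal start, since GENCODE M21 places the first base of the gene upstream, at 84129672. Sequence before that first base was not searched, so the lack of both motifs does not describe it. Of the 32851 windows of 250 bases in the RefSeq table, 33.8% held at least 1 NF-Y box and 2.79% at least 3. At least 1 GC box was held by 32.7%, and at least 3 by 8.47%. Windows were found for 9 of the 10 members (13 windows, with Scd1 having no entry), and an NF-Y box was present in 7 of the 13 windows, of 6 members: Fasn, Acacb, Me1, Mlxipl, Srebf1 and Thrsp, the last with 2 boxes at bases 79 to 75 and 52 to 48. The sterol regulatory element, searched as TCACNCCAC on both strands, was found in 1 window, of Mlxipl (1.05% of all windows held it), and its strict form TCACCCCAC, which is a subset of these matches, in none (0.496% of all windows). The E-box CACGTG was found in 1 window, also of Mlxipl (6.02% of all windows). These matches describe letters in the windows, and binding was not measured.

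Between 13824780 and 20579984 reads were counted on genes in each mouse, so that counting error was small for the 10 members, the lowest of which (Acacb) still had normalized counts of 224 or more in every mouse. Nod2 itself had 0 to 4 counts in WT and 1 to 6 in Nod2-/- mice and could not check the labels. WT replicate 3 stood apart from the other WT mice: its summed level of 10 liver tumor and progenitor markers was 8680 normalized counts, against 707 to 3017 in the other WT mice and 2919 to 12973 in Nod2-/- mice. That sum was mostly Spp1, Afp, H19 and Gpc3. For Sox9, Epcam, Krt19 and Cd24a the highest WT mouse was replicate 6, with Sox9 at 77.8 against 60.6 in replicate 3. Other marker lists also moved with genotype or with 1 mouse. The summed level of 10 neutrophil markers was 69.1 to 156 in WT and 98.4 to 669 in Nod2-/- replicates 1 to 6 but 16247 in replicate 7, that of 10 Kupffer cell markers was 4961 to 7152 in WT and 5951 to 7819 in Nod2-/- replicates 1 to 6 but 12915 in replicate 7, and that of 10 lung epithelium markers was 245 to 3411 in WT and 51.8 to 567.9 in Nod2-/- mice. Of these lists, with 8, 4, 10 and 6 of their 10 genes tested, 1 gene, the progenitor marker Sox9, passed 5% FDR (log2 fold change 1.29, edgeR adjusted p = 0.0324), where 1.16% of all genes tested passed. By DESeq2, which passed 7.26% of the genes it tested, 4 neutrophil and 2 tumor and progenitor markers passed as higher and 6 lung epithelium markers as lower in Nod2-/- mice, with 0 Kupffer cell markers. Hepatocyte markers were abundant in every mouse, with a summed level of 9 genes of 1351510 to 1890590 in WT and 1440060 to 2985570 in Nod2-/- mice. This sum was mostly Alb, with means of 1142240 in WT and 1323090 in Nod2-/- mice. None of the 9 genes passed 5% FDR in edgeR. At an unadjusted p under 0.05, Apoa1 was higher (log2 fold change 0.53) and Hnf4a (-0.34) and Cps1 (-0.38) were lower in Nod2-/- mice. Of all genes tested, 23.1% had such a p. Fat cells can also carry lipogenic transcripts. Of the 10 adipocyte markers, 3 were tested. Fabp4 had means of 205 normalized counts in WT and 426 in Nod2-/- mice, and Adrb3 39.8 and 70.8 (edgeR adjusted p = 0.0837 and 0.0803, DESeq2 adjusted p = 0.0208 and 0.0219). Most other markers were near 0 in both genotypes, with Adipoq at 4.99 or less, Plin1 at 2.99 or less and at 0 in all WT mice, and Lep and Ucp1 at 1.10 or less. Cfd had 33.9 in Nod2-/- replicate 4, the mouse with the highest Adipoq and Plin1, and 7.67 or less in every other mouse. The summed level of the 10 adipocyte markers (26237 to 131303 in WT and 7271 to 86799 in Nod2-/- mice) was mostly Car3, the third gene tested (edgeR adjusted p = 0.308), which hepatocytes express. The part of these cells in the values below was not tested, and in whole tissue fewer cells of a type and less RNA per cell cannot be told apart.

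The largest log2 fold changes among the 10 genes were those of Scd1, with a mean of 12236 normalized counts in Nod2-/- and 3202 in WT mice, and of Thrsp, in the opposite direction, with means of 7752 and 13498. None of the 10 passed 5% FDR in edgeR's quasi-likelihood test over 13545 genes, in which 1.16% of the genes tested passed. At an unadjusted p under 0.05, 3 members were higher in Nod2-/- mice (Scd1, Fasn and Srebf1) and 1 was lower (Thrsp), where 23.1% of all genes tested had such a p. No member had genotypes that did not overlap, as 1.44% of the genes tested did. The median log2 fold change was 0.39 over the 10 members and 0.02 over all genes tested. By DESeq2, the tool used in the study, 1 of 10 members (Scd1) passed, against 7.26% of the genes tested, and by limma's voomWithQualityWeights, which gives less weight to deviating libraries, 2 of 10 (Scd1 and Fasn) passed, against 6.22%. Without WT replicate 3, which had the highest WT level of both, Scd1 and Fasn also passed in edgeR, where 8.49% of the genes tested did. No member passed in edgeR without any other single mouse. Normalized counts are scaled by TMM to a common library size, and the mice are the replicates.

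**Figure D1:**
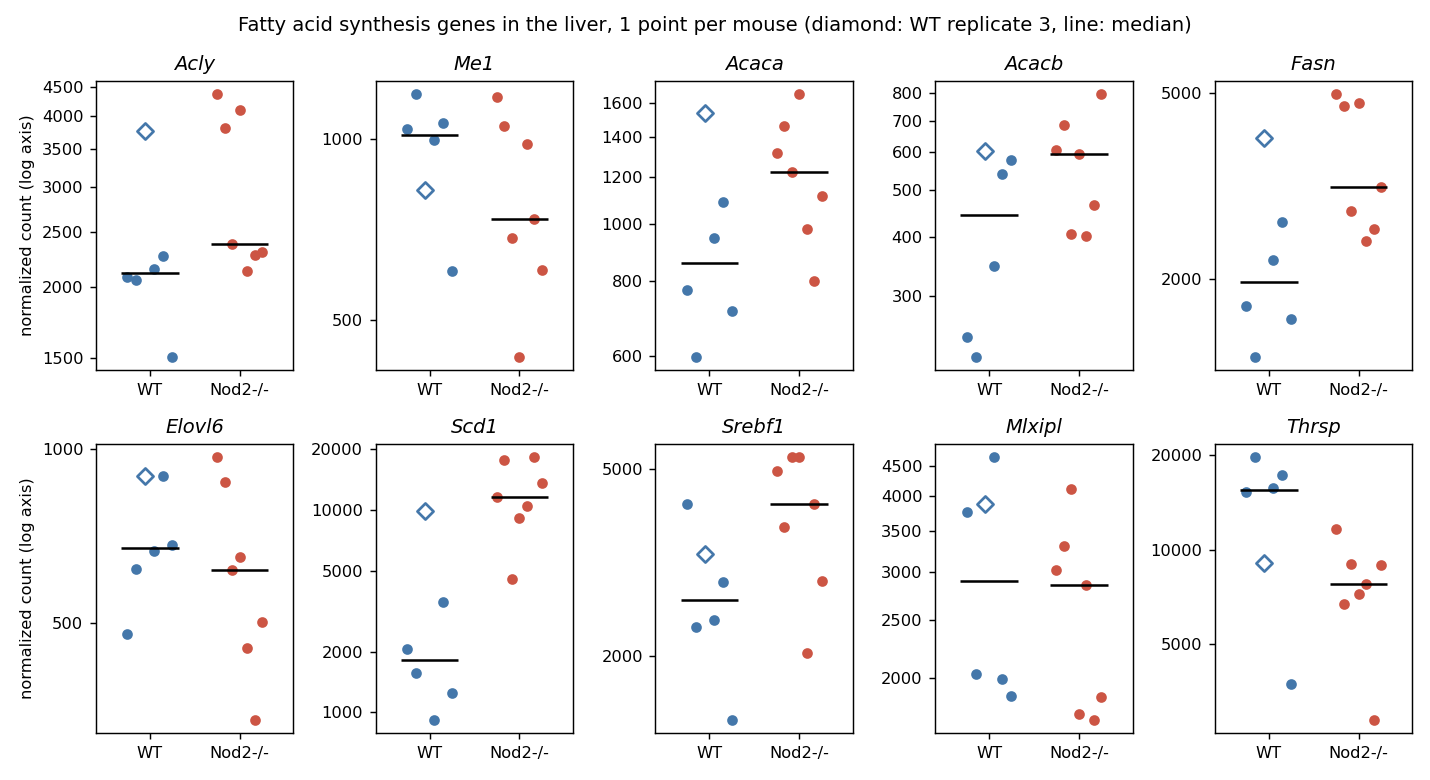
Normalized count on a log axis for each of the 10 genes in each mouse, with WT mice in blue, Nod2-/- mice in red, a line at each genotype's median and an open diamond for WT replicate 3. In Scd1, 5 of the 7 Nod2-/- mice lie above all WT mice, and in Thrsp all Nod2-/- mice lie below the WT median.

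The supply of acetyl-CoA and NADPH was measured by Acly and Me1. Acly, ATP citrate lyase, had 2090, 2060, 3762, 2158, 2275 and 1508 normalized counts in WT replicates 1 to 6 and 4376, 3811, 2390, 4098, 2136, 2284 and 2312 in Nod2-/- replicates 1 to 7. Nod2-/- replicates 1, 2 and 4 and WT replicate 3 were high, and the remaining mice of both genotypes lay between 1508 and 2390. The log2 fold change was 0.41 (SE 0.23, 95% interval -0.08 to 0.89), with an adjusted p of 0.296 by edgeR. Me1, malic enzyme, ranged from 604 to 1187 (median 1017) in WT and from 434 to 1175 (median 737) in Nod2-/- mice, with a log2 fold change of -0.23 (SE 0.21, adjusted p = 0.528 by edgeR). Its groups overlapped over nearly their whole range.

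Of the genes that make malonyl-CoA and palmitate, Fasn had the largest log2 fold change. Fasn, fatty acid synthase, had 1750, 1358, 3999, 2191, 2650 and 1636 normalized counts in WT replicates 1 to 6 and 4977, 4692, 2800, 4764, 2410, 2556 and 3153 in Nod2-/- replicates 1 to 7. All 7 Nod2-/- mice lay above the WT median of 1970, and 3 lay above every WT mouse. The log2 fold change was 0.68 (SE 0.26, 95% interval 0.13 to 1.23), with an adjusted p of 0.143 by edgeR, and the two-sided exact permutation test gave p = 0.0291. Without WT replicate 3, the highest WT mouse, the log2 fold change was 0.90 and the adjusted p 0.0339 by edgeR. Without any other single mouse, Fasn did not pass, with an edgeR adjusted p of 0.116 to 0.281.

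The 2 acetyl-CoA carboxylases had smaller differences than Fasn. Acaca encodes the cytosolic isoform, whose malonyl-CoA is the substrate of fatty acid synthase, and ranged from 596 to 1540 (median 860) in WT and from 802 to 1653 (median 1225) in Nod2-/- mice. Acacb encodes the mitochondrial isoform, whose malonyl-CoA restrains fatty acid oxidation, and ranged from 224 to 606 (median 444) in WT and from 402 to 795 (median 595) in Nod2-/- mice. The log2 fold change was 0.37 (SE 0.21, adjusted p = 0.300 by edgeR) for Acaca and 0.41 (SE 0.25, adjusted p = 0.333) for Acacb. In both genes the genotypes overlapped, and 6 of 7 Nod2-/- mice lay above the WT median for Acaca and 5 of 7 for Acacb.

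Scd1 and Elovl6, which modify the palmitate that is made, had opposite directions. Scd1, stearoyl-CoA desaturase, had 2056, 1572, 9912, 920, 3508 and 1245 normalized counts in WT replicates 1 to 6 and 11681, 17779, 4581, 9116, 10520, 18345 and 13634 in Nod2-/- replicates 1 to 7. WT replicate 3 was the one WT mouse within the Nod2-/- range, and all 7 Nod2-/- mice lay above the other 5 WT mice. The log2 fold change was 1.93 (SE 0.52, 95% interval 0.83 to 3.04), with an adjusted p of 0.0673 by edgeR and an exact permutation p of 0.00350, where 6 against 7 mice allow no p below 0.000583. Scd1 passed 5% FDR by DESeq2 (log2 fold change of 1.93, adjusted p = 0.0121), by voomWithQualityWeights (2.49, adjusted p = 0.0121) and by edgeR without WT replicate 3 (2.70, adjusted p = 0.00452). That mouse had the highest WT level, so that leaving it out was bound to raise the fold change. Without any other single mouse, Scd1 did not pass, with an edgeR adjusted p of 0.0537 to 0.161.

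Elovl6, the elongase of palmitate, ranged from 478 to 897 (median 674) in WT and from 340 to 968 (median 616) in Nod2-/- mice. Its log2 fold change was -0.17 (SE 0.22, adjusted p = 0.678 by edgeR). The lowest 2 values, 340 and 453, were from Nod2-/- replicates 6 and 5, while the highest, 968, was also from a Nod2-/- mouse.

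Of the transcription factor genes, Srebf1 had 4214, 2310, 3296, 2388, 2869 and 1464 normalized counts in WT replicates 1 to 6 and 4961, 3763, 5309, 5301, 2029, 4210 and 2889 in Nod2-/- replicates 1 to 7. 3 Nod2-/- mice lay above all WT mice, and Nod2-/- replicate 5 lay below 5 of the 6 WT mice. The log2 fold change was 0.56 (SE 0.25, adjusted p = 0.199 by edgeR), and the exact permutation test gave p = 0.0746. The counts do not separate the SREBP-1a and SREBP-1c transcripts. Mlxipl, which encodes ChREBP, ranged from 1868 to 4651 (median 2903) in WT and from 1708 to 4115 (median 2854) in Nod2-/- mice, with a log2 fold change of -0.19 (SE 0.27, adjusted p = 0.698 by edgeR). The lowest 3 values of Mlxipl (1708, 1749 and 1862) were all from Nod2-/- mice, just below the lowest WT value.

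Thrsp, also called Spot 14, encodes a small protein known to rise with lipogenic diets and thyroid hormone. It had 15332, 19796, 9057, 15787, 17290 and 3723 normalized counts in WT replicates 1 to 6 and 11646, 6745, 9011, 7220, 7802, 2873 and 8969 in Nod2-/- replicates 1 to 7. WT replicates 1, 2, 4 and 5 lay above all Nod2-/- mice, while WT replicates 3 and 6 lay within the Nod2-/- range. The log2 fold change was -0.80 (SE 0.34, 95% interval -1.53 to -0.07), with an adjusted p of 0.182 by edgeR and an exact permutation p of 0.128. Its paralog Mid1ip1, which encodes an activator of acetyl-CoA carboxylase, had the opposite direction, with 291 to 570 normalized counts in WT and 472 to 957 in Nod2-/- mice (log2 fold change 0.70, edgeR adjusted p = 0.0723).

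**Figure D2:**
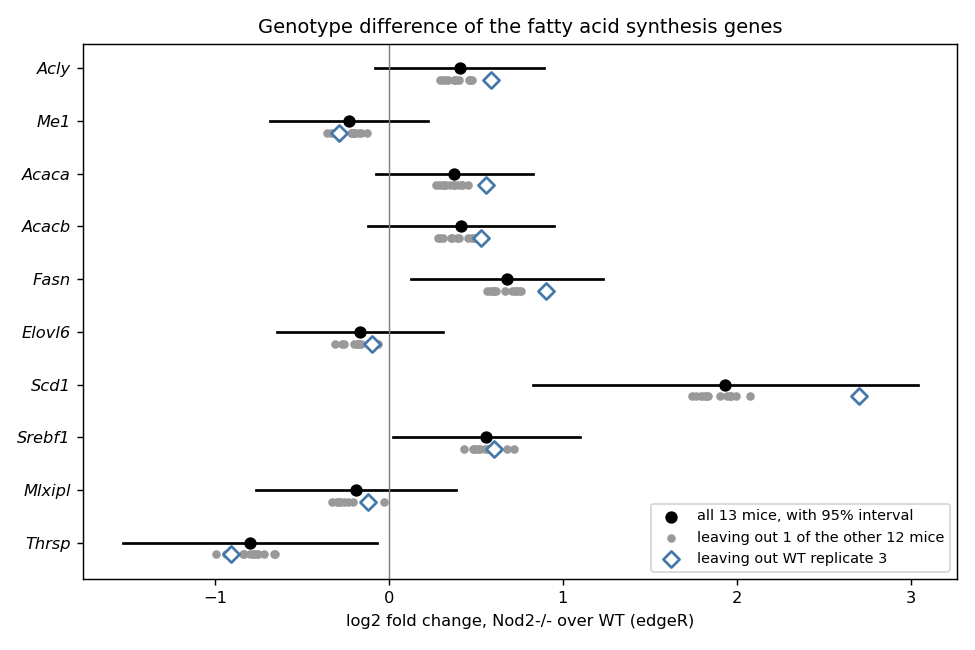
Log2 fold change of Nod2-/- over WT mice by edgeR for each gene, with its 95% interval over all 13 mice (black), the values with 1 of the other 12 mice left out (grey) and the value without WT replicate 3 (open diamond). Scd1 moves from 1.93 to 2.70 without WT replicate 3, and no gene changes direction in any of these fits.

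The weight of the single genes within the pathway's transcripts was compared within each mouse, where library size has no part. These ratios were chosen after the values had been seen and were not tested. Together the 10 genes took 0.0832% to 0.242% of all counts in WT and 0.179% to 0.286% in Nod2-/- mice, so that the total overlapped. Thrsp was 23.97% to 62.3% (median 49.4%) of these counts in WT and 8.37% to 28.9% (median 25.03%) in Nod2-/- mice. Scd1 was 2.96% to 26.2% (median 7.68%) in WT and 14.7% to 53.4% (median 34.4%) in Nod2-/- mice. In WT replicate 3 these shares were 23.97% for Thrsp and 26.2% for Scd1, both within the Nod2-/- range. The Thrsp share of WT replicate 6, at 26.6%, also lay within that range, and its Scd1 share, at 8.88%, lay below it.

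**Figure D3:**
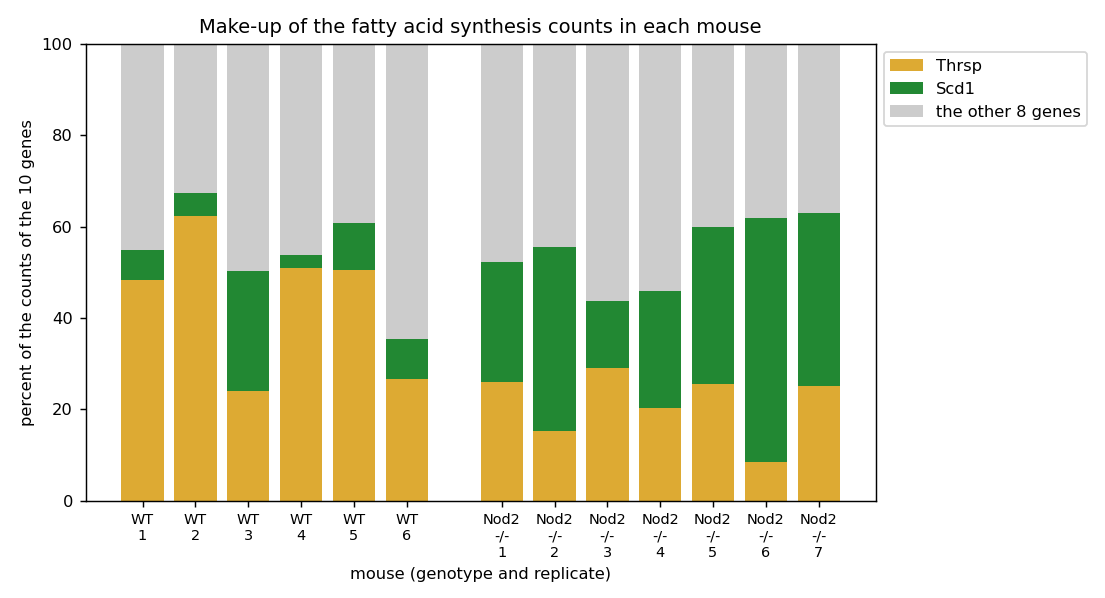
Percent of the summed counts of the 10 genes taken by Thrsp (yellow), Scd1 (green) and the other 8 genes (grey) in each mouse, WT on the left and Nod2-/- on the right. The green part runs from 2.96% in WT replicate 4 to 53.4% in Nod2-/- replicate 6.

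The ratio of Thrsp to Fasn counts in 1 mouse was 2.26 to 14.6 (median 6.87) in WT and 1.12 to 3.24 (median 2.34) in Nod2-/- mice. The ratio of Thrsp to Mid1ip1 was 12.8 to 52.4 in WT and 4.36 to 16.5 in Nod2-/- mice, and that of Scd1 to Fasn was 0.42 to 2.48 in WT and 1.64 to 7.18 in Nod2-/- mice. In each of these ratios most WT mice lay outside the Nod2-/- range, and WT replicate 3 lay within it. WT replicate 6 also lay within it for Thrsp to Fasn (2.28) and Thrsp to Mid1ip1 (12.8). The ratio of Scd1 to Scd2 overlapped, at 3.28 to 18.6 in WT and 3.54 to 73.6 in Nod2-/- mice, with most WT mice inside the Nod2-/- range. Per kilobase of exon, on the scale of normalized counts, Thrsp was the highest of the 10 genes in all 6 WT mice, with a mean of 6166 ± 2725 (SD, n = 6). In Nod2-/- mice it was the highest in 5 of 7, with a mean of 3541 ± 1228 (SD, n = 7), and Scd1 was the highest in the other 2, replicates 2 and 6. The mean of Scd1 per kilobase was 655 ± 697 (SD, n = 6) in WT and 2501 ± 993 (SD, n = 7) in Nod2-/- mice, and its place among the 10 genes ran from 2 to 7 in WT and from 1 to 3 in Nod2-/- mice. Acaca and Acacb were the lowest, at 55.2 and 44.0 per kilobase in WT and 71.6 and 58.7 in Nod2-/- mice.

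Within a genotype, several members followed each other from mouse to mouse. Covariation was measured on deviations of log2 CPM from the genotype mean over 13 mice, so that the genotype difference itself could not produce it, and p was obtained by 100000 permutations within genotype and adjusted over the 45 pairs. Fasn and Acaca had Pearson's r = 0.935 and Spearman's rho = 0.934 (adjusted permutation p = 0.0027 for both). Fasn and Acly had r = 0.902 (rho = 0.879, adjusted permutation p = 0.0160 and 0.0118), and Acaca and Acly had r = 0.804 (rho = 0.841, adjusted permutation p = 0.0214 and 0.0118). Elovl6 went with Fasn at r = 0.774 (rho = 0.775, adjusted permutation p = 0.0214 and 0.0382) and with Acaca at r = 0.727 (rho = 0.775, adjusted permutation p = 0.0312 and 0.0254). These were the 5 pairs that passed by both measures. How many pairs of other genes would pass was not measured, so that such covariation cannot be called particular to these members. Without the 2 mice farthest from the median of the first gene of each pair, r was 0.949 for Fasn and Acaca, 0.950 for Fasn and Acly, 0.844 for Acaca and Acly, 0.781 for Fasn and Elovl6 and 0.797 for Acaca and Elovl6.

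The r of the remaining members with these 4 genes was lower. With Fasn, Acaca, Acly and Elovl6, r was 0.33 to 0.653 for Acacb, 0.202 to 0.565 for Scd1, 0.209 to 0.590 for Srebf1, 0.244 to 0.361 for Mlxipl, 0.137 to 0.296 for Thrsp and -0.155 to 0.195 for Me1. None of these passed the adjustment over 45 pairs, and whether they differed from the closer pairs was not tested. Fasn and Scd1 had r = 0.565 over all 13 mice (rho = 0.379), with 0.804 within WT and 0.149 within Nod2-/- mice. With single mice left out, their r over both genotypes was 0.291 to 0.669. Whether r differed between the genotypes was not tested. The median over the 45 pairs was 0.31, with 8 pairs below 0.

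**Figure D4:**
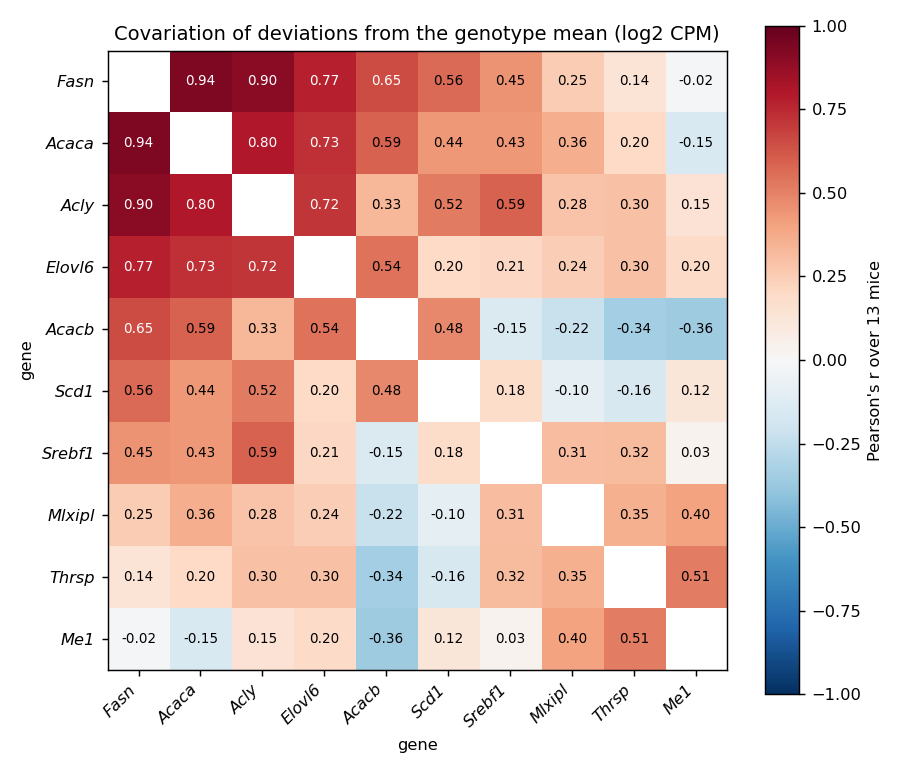
Pearson's r between the deviations of 2 genes from their genotype means on the log2 CPM scale over 13 mice, from blue (-1) to red (1). The red block at the upper left holds Fasn, Acaca, Acly and Elovl6, whose 6 pairs run from 0.717 to 0.935, and the row of Me1 stays near or below 0.51.

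The order of the mice was shared by several members. In WT mice, replicate 3 had the highest value of 6 members (Fasn, Acaca, Acacb, Acly, Scd1 and Elovl6), and replicate 6 the lowest of 5. In Nod2-/- mice, replicate 1 had the highest value of 5 members, and replicates 5 and 6 the lowest of 4 members each. Averaged over the 10 members, the deviation from the genotype mean was 0.58 in WT replicate 3 and -0.53 in WT replicate 6 on the log2 scale, and it was 0.41 in Nod2-/- replicate 1, -0.35 in replicate 6 and -0.25 in replicate 5.

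Some genes of the circadian clock stood apart in 3 of the mice with low values. Lipogenic genes are known to be rhythmic in the liver, with feeding and with the clock. Nr1d1, a clock repressor, had 150 normalized counts in WT replicate 6 and 281 to 1141 in the other WT mice, and 87.9 and 212 in Nod2-/- replicates 5 and 6 against 614 to 1558 in the other Nod2-/- mice. Arntl, a clock activator with the opposite phase, had 72.1 in WT replicate 6 and 18.1 to 49.3 in the other WT mice, and 142 and 95.6 in Nod2-/- replicates 5 and 6 against 23.3 to 30.9 in the others. Dbp, an output gene of the clock, had 711 in WT replicate 6, 451 in Nod2-/- replicate 5 and 670 in Nod2-/- replicate 6, and 1197 to 2342 in the other mice. WT replicate 2, in which the log2 CPM of the members deviated from the WT mean by -0.24 on average, had 322 for Nr1d1, 49.3 for Arntl and 1197 for Dbp. The other clock genes did not all follow: Per1 in WT replicate 6 and Nod2-/- replicates 5 and 6 (479, 644 and 596) lay within the range of the other mice of their genotype. These mice and genes were singled out after their values had been seen, the times at which tissue was taken were not given, and the part of the clock in the levels of the 10 genes was not tested. Of the 13 clock genes tested between genotypes, none passed 5% FDR, while 2 were lower and 0 were higher in Nod2-/- mice with p under 0.05 before adjustment, against 23.1% of all genes tested.

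The genes outside the pathway whose deviations were most like the mean of the 10 members were sought among 11497 genes over the 13 mice. Arhgap12, which encodes a GTPase-activating protein, had r = 0.944, Nr3c2, the mineralocorticoid receptor gene, r = 0.940, and Gopc, which encodes a Golgi protein, r = 0.935. They were followed by Fgd6 (0.902), Uggt2 (0.898), Ctnnb1, the beta-catenin gene (0.891), Vps18 (0.891), Chm (0.889), Frmd4a (0.883) and 8030462N17Rik (0.883). They were picked as the highest of many, so that r is a description. None of these 10 genes passed 5% FDR between genotypes.

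Around the pathway, 88 genes of 8 lists were counted, of which 84 were tested. Of these, 1 gene passed 5% FDR in edgeR, Fgf21, and 20 were higher and 12 lower in Nod2-/- mice at an unadjusted p under 0.05, against 1.16% and 23.1% of all genes tested. Fgf21 encodes a liver hormone and was listed here with the ChREBP targets, and the part of ChREBP in its level was not tested. It had 53.3 to 113 normalized counts in WT mice and 109, in replicate 6, to 594, in replicate 2, in Nod2-/- mice, with a log2 fold change of 1.70 (SE 0.32, adjusted p = 0.0261 by edgeR). Of the 7 Nod2-/- mice, 6 lay above all WT mice. Fgf21 no longer passed without WT replicate 1, 2 or 4 (edgeR adjusted p = 0.0678, 0.0727 and 0.0728).

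Of 8 genes of acetyl-CoA and NADPH supply, none passed, with a median log2 fold change of 0.16. G6pdx and Pgd, the NADPH-producing enzymes of the pentose phosphate pathway, had log2 fold changes of 1.51 (adjusted p = 0.0807) and 0.59 (adjusted p = 0.0669 by edgeR). Aacs, which makes acetoacetyl-CoA in the cytosol, had -0.70 (adjusted p = 0.109). Slc25a1, the citrate carrier, had 0.42 (adjusted p = 0.117).

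Of 8 genes of malonyl-CoA turnover and the partner enzymes of elongation, none passed, with a median of 0.19. Besides Mid1ip1, Acsl3, which activates fatty acids, had a log2 fold change of 1.11 (edgeR adjusted p = 0.0656), and 6 of 7 Nod2-/- mice lay above all WT mice. Of 10 other desaturases and elongases tested of 13 listed, none passed, with a median of 0.45. Fads1 and Elovl5, of polyunsaturated fatty acid synthesis, had 0.72 (adjusted p = 0.0694) and 0.44 (adjusted p = 0.0923). Scd2, a desaturase that is low in the adult liver, had 97.6 to 460 normalized counts in 5 WT mice and 1845 in WT replicate 3, and 249 to 2572 in Nod2-/- mice (log2 fold change 1.22, edgeR adjusted p = 0.338).

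Of 7 genes of SREBP processing, none passed, with a median of 0.12. Srebf2, of cholesterol synthesis, had a log2 fold change of 0.62 (edgeR adjusted p = 0.0867) and Insig1, which retains SREBP in the endoplasmic reticulum and is itself an SREBP target, 0.78 (adjusted p = 0.104). Of 14 genes listed with SREBP-1c and LXR, none passed, with a median of -0.01. Besides targets, this list held the LXR genes Nr1h3 (-0.04) and Nr1h2 (0.03) and the coactivator gene Ppargc1b (-0.62). Pnpla3 and Pnpla5, lipase-like genes that follow SREBP-1c, had 2.26 (adjusted p = 0.129) and 2.76 (adjusted p = 0.149), on low counts of 95.8 or less and 52.4 or less in WT mice. Angptl8, an insulin-induced secreted protein gene, had 1.25 (adjusted p = 0.0744 by edgeR).

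Of 12 ChREBP partners and targets, Fgf21 alone passed, with a median of 0.03 for the list. Txnip, a glucose-induced gene, had a log2 fold change of -0.83 (edgeR adjusted p = 0.0624) with all Nod2-/- mice below the WT median, while Pklr, of glycolysis, had -0.19 (adjusted p = 0.658). Of 12 genes of the fasting response, none passed, with a median of -0.03. Acot1, an acyl-CoA thioesterase, had -1.52 (adjusted p = 0.127) and Sds, serine dehydratase, 0.94 (adjusted p = 0.0673 by edgeR). The medians of the lists are to be read beside that of all genes tested, 0.02.

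By DESeq2, 14 of the genes around the pathway passed as higher and 4 as lower in Nod2-/- mice, where 7.26% of all genes tested passed. Those that were higher were G6pdx, Pgd, Mid1ip1, Acsl3, Fads1, Elovl5, Srebf2, Insig1, Fbxw7, Mylip, Angptl8, Fgf21, Tm6sf2 and Sds. Those that were lower included Aacs, Txnip and Slc2a2. Without WT replicate 3, edgeR passed 15 as higher and 3 as lower, where 8.49% of all genes tested passed.

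**Figure D5:**
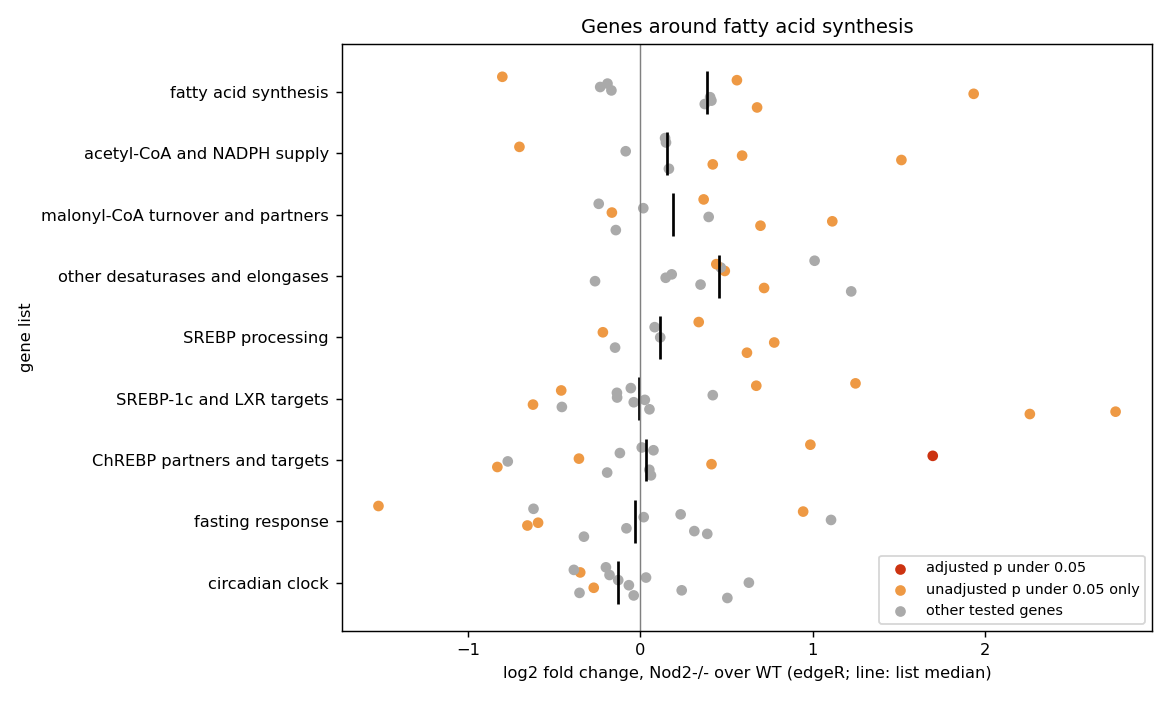
Log2 fold change of Nod2-/- over WT mice by edgeR for each tested gene, by list, with the list median as a black line. Red marks an adjusted p under 0.05 (Fgf21 alone), orange an unadjusted p under 0.05 and grey the other genes.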

How the data were processed

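Per the labels, poly(A) RNA from liver was made into strand-specific TruSeq libraries and sequenced as paired reads. The authors used Trimmomatic 0.33 for trimming and TopHat2 2.1.1 for mapping to GRCm38, and deposited raw counts per gene. The counting program and its treatment of strand are not given in the sources used here. The deposited counts were used as they are, 13824780 to 20579984 per mouse, and 1 row without a gene identifier, holding 0% of the counts, was left out.

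Genes kept by filterByExpr (13545, with 99.9% of counts) were normalized by TMM and tested with edgeR 4.0.16 (R 4.3.3) by the quasi-likelihood test, two-sided, without covariates, with Benjamini-Hochberg adjustment and a threshold of 0.05. Normalized counts are CPM times the mean effective library size. Log2 CPM used a prior count of 2. The exact test permuted mean log2 CPM over all 1716 splits of the mice. DESeq2 1.42.0, the tool of the study, limma 3.58.1 (voomWithQualityWeights), other normalizations and filters, a robust fit, the replicate number as a block and leaving out each mouse were alternatives. The block fit left out Nod2-/- replicate 7. A DESeq2 run restricted to the edgeR-filtered genes was chosen after seeing the data. Each tool was checked on simulated counts in which 200 genes had known changes. These counts had the same dispersion for every gene and no deviating mouse. The check therefore cannot decide between the tools for these mice.

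The members and the lists (acetyl-CoA and NADPH supply, malonyl-CoA turnover and partners, other desaturases and elongases, SREBP processing, SREBP-1c and LXR targets, ChREBP partners and targets, fasting response, circadian clock, and markers of hepatocytes, adipocytes, neutrophils, Kupffer cells, lung epithelium and liver tumor) were chosen with earlier results of these data known, and no list was tested as a set. Named genes were the members, list genes, Nod2 and the 10 genes most like the mean of the members. List genes with counts too low for the filter were not tested. Results for some single genes of the lists are not reported here. Exon lengths are from GENCODE M21 and promoters from RefSeq (GRCm38.p6). WT and Nod2-/- mice were not littermates, and differences between the lines or cages cannot be told apart from genotype.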

Additional observations from a re-analysis of the deposited data

Results flagged for a closer look

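Within WT mice, replicate 3 stood far from the other 5 in 2 of the 10 genes by Dixon's test. Its Scd1 level was 9912 normalized counts, and the gap to the next mouse was 0.712 of the range of the group, above the critical value of 0.625 for 6 samples. Its Acly level was 3762 normalized counts, with a gap of 0.660 of the range. The 10 genes in 2 genotypes gave 20 such groups of mice, of which chance alone would mark about 1 in 20. No Nod2-/- mouse passed this limit for any of the 10 genes.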

How the results depend on the processing

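The 10 genes kept their direction in all 23 alternatives. Of 230 values, 224 also kept their side of the 5% threshold and 6 passed it newly. The number of the 10 genes that passed was 0, and it was 1 by DESeq2, 1 by DESeq2 restricted to the edgeR-filtered genes, 2 by voomWithQualityWeights, and 0 to 2 when 1 mouse was left out, with 2 without WT replicate 3. Of the pathway genes around them, 1 passed, with 18 by DESeq2, 18 by DESeq2 restricted to the edgeR-filtered genes, 17 by voomWithQualityWeights, and 0 to 18 when 1 mouse was left out: 0 without WT replicate 1, 2 or 4, 18 without WT replicate 3, 3 without Nod2-/- replicate 1, 2 without replicate 3 and 4 without replicate 5. Over all genes, 157 passed, with 1154 by DESeq2, 1153 by DESeq2 restricted to the edgeR-filtered genes, 843 by voomWithQualityWeights, and 41 to 1156 when 1 mouse was left out, of which the highest was without WT replicate 3 and the lowest without WT replicate 1. The cause of these differences was not tested.

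The fit with the replicate number as a block left out Nod2-/- replicate 7, which had no WT mouse of its number. In this fit 32 genes passed, 0 of the 10 members and 0 of the genes around them (Fgf21 with an edgeR adjusted p of 0.125). Leaving out that mouse without a block gave 54 genes, so that the count of 32 does not describe the block alone. The deviations of mice with the same number had r of -0.302 to 0.304 over 6 numbers. Mice with different numbers were not compared, so that these values cannot decide whether the numbers pair the mice. Scd1 ranged over the alternatives from 1.74 to 2.70 on the log2 scale (adjusted p of 0.00452 to 0.161 by the tools named), Fasn from 0.57 to 0.90 (0.0339 to 0.281) and Thrsp from -0.996 to -0.66 (0.0696 to 0.352). Depth did not limit the 10 genes, which had normalized counts of 224 or more in every mouse.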
